A study of Mus musculus with 2 samples.

Results

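The glutathione and antioxidant enzymes described here are 39 mouse genes, chosen by name, that make or recycle glutathione, use it to detoxify foreign compounds, or remove superoxide and peroxides, together with the sensor and transcription factor that control many of them. A gene was counted as present where at least 1 probe set, the group of short probes that reads a transcript on an Affymetrix array, was assigned to that gene alone. This held for 36 of the 39 genes, out of 18193 genes with such a probe set in all, and they were read by 73 probe sets. Prdx1 was read only by probe sets that are also assigned to a second gene, and the expression of Prdx1, Prdx5 and Prdx6 was not analysed here. Prdx1 appears below for its promoter sequence alone.

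Each of a pair of endothelial lines of the mouse was profiled once, on 1 array. MS-1 comes from small vessels of the pancreas and was kept in DMEM with 5% fetal calf serum, and SVEC4-10 comes from an axillary lymph node and was kept in DMEM with 10% fetal calf serum. Both lines carry the SV40 large T antigen, which immortalises cells, and both were harvested at confluence after 3 to 5 days, at passage 5 or earlier. Serum and line therefore cannot be told apart, with 1 array per line no difference has a replicate check, so no p-value is given.

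Glutathione is a tripeptide whose free thiol reduces peroxides and is joined to reactive compounds. Glutamate-cysteine ligase and glutathione synthetase make it, glutathione reductase returns the oxidised form to the reduced one with NADPH, glutathione peroxidases spend it on peroxides, and glutathione S-transferases attach it to electrophiles. Thioredoxin and the peroxiredoxins form a parallel thiol system, and superoxide dismutases and catalase act without a thiol partner. The transcription factor NRF2, held back and marked for breakdown by KEAP1, drives many of these genes through the antioxidant response element. In endothelium these enzymes limit the oxidative loss of nitric oxide and cell injury by peroxides.

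Signals are on a linear scale as deposited, and levels of different probe sets are not compared with each other because probes differ in affinity. Background, the 95th percentile of probe sets of receptors for odorants, pheromones and taste and of hair keratin-associated proteins, was a signal of 16.3 in MS-1 and 17.6 in SVEC4-10. A gene was measured if it was above background on at least 1 array, which held for 12583 genes. A signal below background was raised to background before the log2 ratio of SVEC4-10 over MS-1 was taken, so such a ratio is a lower bound, written as "at least". The error given with a log2 ratio is the standard deviation between probe sets of 1 gene, 0.56 for genes of low signal, 0.47 for genes of middle signal and 0.40 for the brightest, with the genes split into 3 equal bins. It holds no variation between cultures.

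The array labelled SVEC4-10 lacked most defining endothelial markers. Of 10 endothelial markers 9 were measured, all at least 2-fold higher in MS-1, and 7 of them, Pecam1, Cdh5, Tek, Emcn, Nos3, Esam and Icam2, were below background in SVEC4-10. Their summed signal was 24409 in MS-1 and 101 in SVEC4-10. Of 10 mesenchymal markers 9 were measured, all at least 2-fold higher in SVEC4-10, with summed signals of 131 and 34363, and Dcn, Col1a1, Col1a2, Col3a1, Pdgfra, Tagln and Lum were below background in MS-1. Of 8 mesothelial markers, 7 were at least 2-fold higher in SVEC4-10 and 1, Krt19, in MS-1, with summed signals of 194 and 13073. Of 8 leukocyte markers 4 were measured and 1, Cd68, was at least 2-fold apart, 79.4-fold higher in MS-1, with summed signals of 3741 and 96.8, while Ptprc, Cd3e and Itgam were below background on both arrays. Of 8 markers of exocrine and endocrine pancreas 3 were measured and 1, Cela1, was at least 2-fold higher in SVEC4-10, with summed signals of 42.0 and 136. Any difference below therefore runs alongside this difference in markers, and the 2 cannot be told apart. In RNA from whole cultures, fewer cells of a type and less RNA per cell cannot be told apart either.

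Of the 36 genes with a probe set, 34 were measured, 29 on both arrays, 4 in SVEC4-10 only and 1 in MS-1 only. At least 2-fold higher signals were found in SVEC4-10 for 5 of the 34 genes (14.7%), against 15.1% of all measured genes. These were the transferases Gsta4 and Gstt1, the peroxidase Gpx7, the peroxiredoxin Prdx4 and the extracellular dismutase Sod3. At least 2-fold higher signals were found in MS-1 for 6 of the 34 genes (17.6%), against 12.1% of all measured genes. These were the transferases Gsto1, Gstt2 and Mgst3, and Nqo1, Srxn1 and Nfe2l2 of the NRF2 pathway. At least 4-fold apart were 3 genes higher in SVEC4-10 (Gsta4, Gstt1 and Sod3) and 2 higher in MS-1 (Gstt2 and Mgst3), against 5.71% and 4.24% of all measured genes. The share at least 2-fold higher in SVEC4-10 is near that of all measured genes, so the set as a whole was not set apart in that direction. The share in MS-1 rests on 6 genes and is given as a description only. Without raising signals to background it stood against 16.5% of all measured genes. The remaining 23 measured genes were under 2-fold apart. The median log2 ratio was -0.17, against 0.015 for all measured genes.

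**Figure D1:**
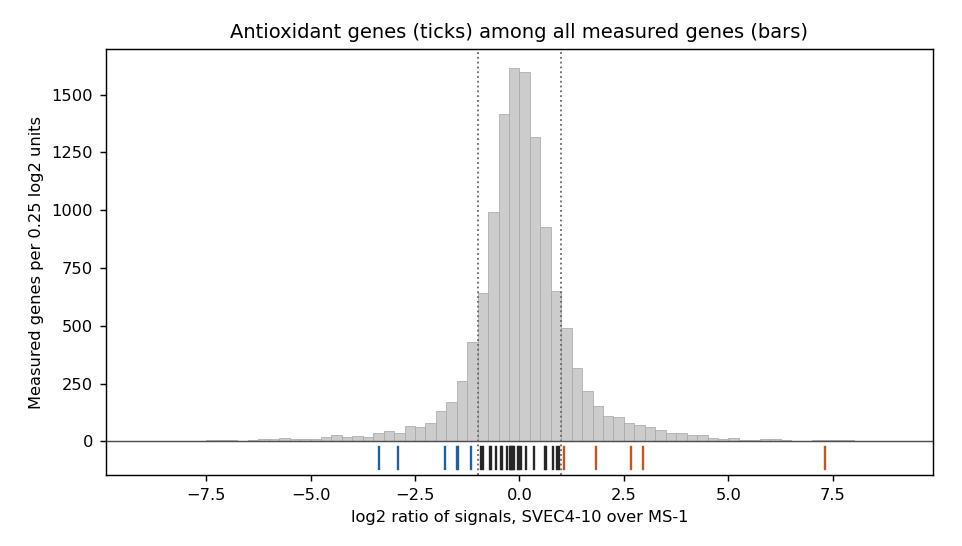
Bars count measured genes by their log2 ratio of signals, SVEC4-10 over MS-1, in steps of 0.25, and ticks under the axis mark the 34 measured antioxidant genes. Dotted lines mark 2-fold. Most ticks lie between the lines, 5 (orange) lie to the right and 6 (blue) to the left, and Gsta4 lies far to the right at 7.32.

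The poly-A control transcripts, which are added to the RNA before labelling, gave a higher signal on the array of SVEC4-10 (21 probe sets, median log2 ratio 0.51). Scaling both arrays to them lowers every log2 ratio by 0.51, that of all measured genes to a median of -0.50. The counts of antioxidant genes at least 2-fold apart then became 4 in SVEC4-10, without Prdx4, and 11 in MS-1, with Gstm1, Gclm, Gsr, Prdx3 and Txnrd2 added, against 8.60% and 25.5% of all measured genes. The direction of Gstm5, Gstp1 and Cat also turned under this scaling, and that of Gpx1 turned under quantile normalization.

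**Figure D2:**
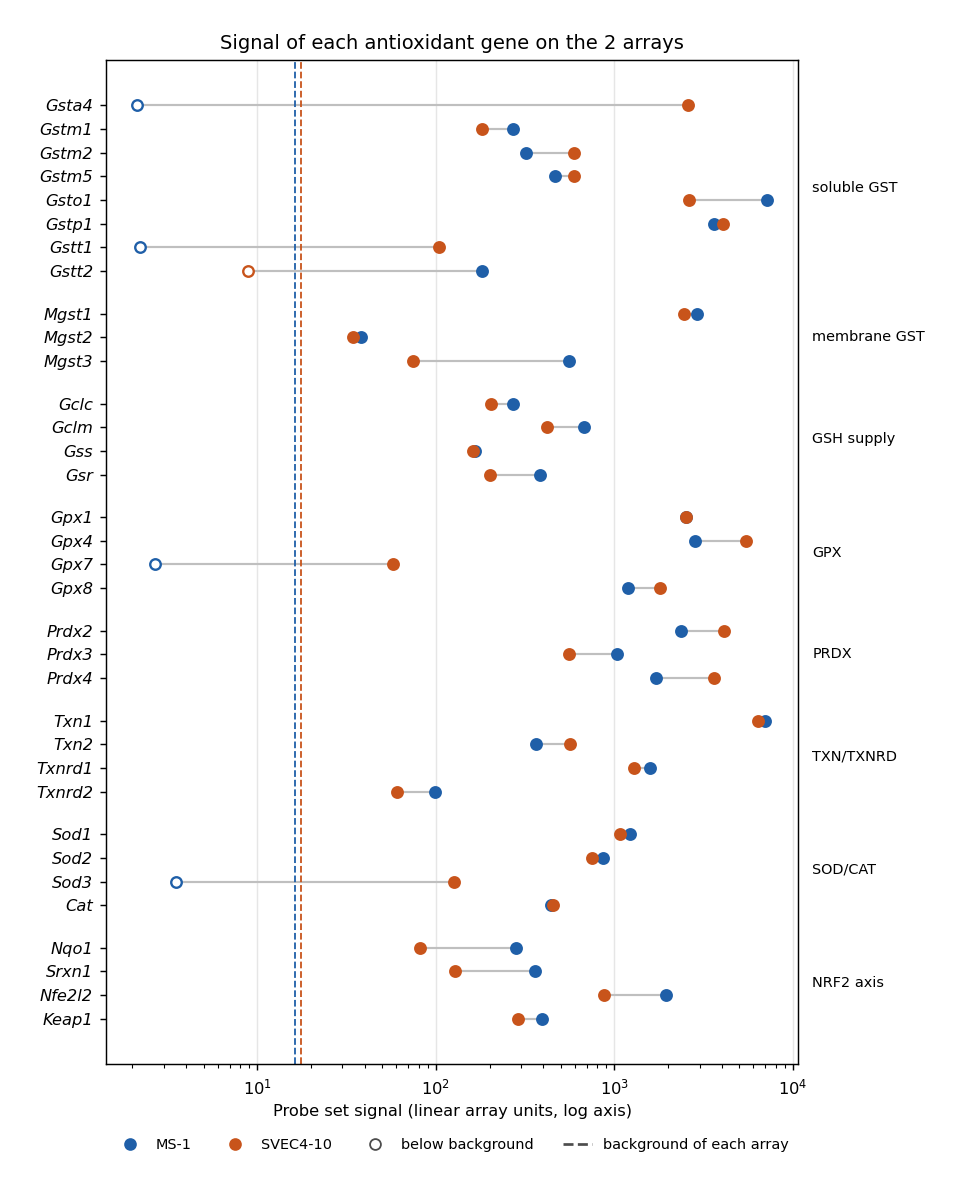
Each row shows the probe set signal of 1 gene on a log axis, blue for MS-1 and orange for SVEC4-10, with genes grouped by role at the right. Open circles are signals below the background of their array (dashed lines): Gsta4, Gstt1, Gpx7 and Sod3 in MS-1 and Gstt2 in SVEC4-10.

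Soluble glutathione S-transferases, which join glutathione to electrophiles, held the widest differences of the set, and these ran in both directions. Gsta4, which clears the lipid peroxidation product 4-hydroxynonenal, had a signal of 2.13 in MS-1, below background, and 2594 in SVEC4-10. It was at least 159-fold higher in SVEC4-10, a log2 ratio of at least 7.32, from its single probe set. Gsto1, an omega-class enzyme with thiol transferase activity, had signals of 7159 in MS-1 and 2603 in SVEC4-10, 2.75-fold higher in MS-1. Its log2 ratio was -1.46 (error 0.40), and its second probe set gave -0.94, just under 2-fold.

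The theta-class genes Gstt1 and Gstt2 differed in opposite directions although they belong to 1 cluster of 4 genes on chromosome 10. Gstt1, which acts on small halogenated compounds, had signals of 2.21 and 104 in MS-1 and SVEC4-10. It was below background in MS-1 and at least 6.37-fold higher in SVEC4-10. Gstt2 had signals of 182 and 8.90, so it was below background in SVEC4-10 and at least 10.3-fold higher in MS-1. Of the other genes of the cluster, Gstt3 had signals of 117 and 193, a log2 ratio of 0.73, and Gstt4 was below background on both arrays. In the RefSeq gene order Gstt4 lies between Gstt1 and Gstt2, and each of Gstt1 and Gstt2 was read by 1 probe set.

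The mu-class genes differed less. Gstm2 had signals of 319 and 595 in MS-1 and SVEC4-10, a log2 ratio of 0.90 (error 0.40), just under 2-fold. Gstm5 had signals of 465 and 591, a log2 ratio of 0.35 that was within its error of 0.40. Gstm1 had signals of 271 and 182, a log2 ratio of -0.57 (error 0.47), and 2 further probe sets gave -0.22 and -0.34. Its dimmest probe set ran the other way, with signals of 18.6 and 40.6 and a log2 ratio of 1.13. The 7 mu-class genes lie in 1 cluster on chromosome 3 and are close in sequence, so signal may be shared between them. Of the 4 that are not among the 39, Gstm4 had signals of 44.8 and 8.67 and was at least 2.54-fold higher in MS-1. Gstm7 and Gstm3 had log2 ratios of 0.51 and 0.13, both within their error of 0.56. The Gstm7 signals of 19.7 and 28.1 were near background, and its second probe set gave -0.60. Gstm6 was below background on both arrays. Gstt3, Gstt4, Gstm3, Gstm6 and Gstm7 were named for their place in these clusters, after their values were seen.

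Gstp1, the pi-class enzyme found in many cultured cells, had signals of 3615 and 4040.1 in MS-1 and SVEC4-10, and its log2 ratio of 0.16 was within its error of 0.40. Its near-identical copy Gstp2 had no probe set of its own here, so the signal may hold both. Gstk1, the kappa-class enzyme of mitochondria and peroxisomes, had signals of 4.38 and 3.80 and was below background on both arrays. Counted over the 9 soluble transferases, 8 were measured, 2 were at least 2-fold higher on each array, and 4 were under 2-fold apart. Of all measured genes, 15.1% were at least 2-fold higher in SVEC4-10 and 12.1% in MS-1. With the poly-A scaling the counts were 2 in SVEC4-10 and 3 in MS-1, against 8.60% and 25.5%. Counts from so few genes, with lower bounds for Gsta4, Gstt1 and Gstt2, are given as a description only.

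The membrane-bound transferases, small proteins of the endoplasmic reticulum and outer mitochondrial membrane, differed in 1 of 3 cases. Mgst3, which also reduces lipid hydroperoxides, had signals of 560.5 in MS-1 and 74.2 in SVEC4-10. It was 7.55-fold higher in MS-1, a log2 ratio of -2.92 (error 0.47), while its second probe set was below background on both arrays. Mgst1 had signals of 2894.5 and 2467, a log2 ratio of -0.23 that was within its error of 0.40. Mgst2 had signals of 38.1 and 34.5, a log2 ratio of -0.14 that was within its error of 0.56.

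The 4 genes of glutathione synthesis and reduction were under 2-fold apart, and their log2 ratios all lay below 0. Gclc, the catalytic subunit of glutamate-cysteine ligase, had signals of 270.0 in MS-1 and 203 in SVEC4-10, a log2 ratio of -0.41 that was within its error of 0.47. Gclm, its modifier subunit, had signals of 672 and 422, a log2 ratio of -0.67, but its second probe set had signals of 84.4 and 128 and a log2 ratio of 0.60. The direction of Gclm therefore depended on the probe set. Gss, glutathione synthetase, was nearly level at 166 and 161, a log2 ratio of -0.040, with 0.36 at its second probe set. Gsr, glutathione reductase, had signals of 383 and 201, a log2 ratio of -0.93 (error 0.47), and -0.094 at its second probe set.

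Among glutathione peroxidases, which reduce peroxides, the log2 ratio of 1 of 4 measured genes passed 2-fold. Gpx7, an enzyme of the endoplasmic reticulum that takes part in oxidative protein folding, had signals of 2.67 in MS-1, below background, and 57.5 in SVEC4-10. It was at least 3.53-fold higher in SVEC4-10, and with background doubled its log2 ratio was 0.82, under 2-fold. Gpx8, its close relative in the same compartment, had signals of 1187 and 1809, a log2 ratio of 0.61 (error 0.40). Gpx4, which reduces lipid hydroperoxides in membranes and protects from ferroptosis, had signals of 2839 and 5430.1, a log2 ratio of 0.94 at 1 probe set and 0.86 at the other. Quantile normalization took it to 1.01, past 2-fold.

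Gpx1, the main cytosolic peroxidase, did not follow these genes. Its signals of 2535 and 2519 in MS-1 and SVEC4-10 gave a log2 ratio of -0.0093 (error 0.40). Gpx3, the secreted plasma enzyme, had signals of 11.3 and 5.63 and was below background on both arrays.

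Of the 6 peroxiredoxins, thiol peroxidases that are recharged by thioredoxin or glutathione, 3 were measured. Prdx4, the form of the endoplasmic reticulum, had signals of 1715 in MS-1 and 3595 in SVEC4-10, a log2 ratio of 1.07 (error 0.40). Its further measured probe sets gave 1.32 and 0.80, so all 3 lay above 0. Prdx3, the mitochondrial form, lay in the other direction, with signals of 1031 and 559 and a log2 ratio of -0.88 (error 0.40). For Prdx2, a cytosolic form abundant in red cells, the probe sets disagreed. The brighter had signals of 2349 and 4113, a log2 ratio of 0.81, and the dimmer had signals of 262 and 42.7, a log2 ratio of -2.62.

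Thioredoxins, which pass electrons from NADPH to peroxiredoxins, and their reductases were under 2-fold apart by the probe set used. Txn1, the cytosolic thioredoxin, had signals of 6998 and 6361 in MS-1 and SVEC4-10, a log2 ratio of -0.14 that was within its error of 0.40, and -0.71 at a dim second probe set. Txn2, its mitochondrial counterpart, had signals of 362 and 563, with log2 ratios of 0.35 to 0.64 over 3 probe sets. Txnrd1, the cytosolic selenoenzyme that reduces thioredoxin, had signals of 1579 and 1288, with log2 ratios of -0.80 to -0.29 over 3 probe sets. Txnrd2, the mitochondrial reductase, had signals of 98.9 and 60.8, and its 3 measured probe sets ranged from -1.13 to -0.70. Without the poly-A scaling, the mitochondrial thioredoxin and its reductase thus lay on opposite sides of 0, each at all of its measured probe sets. That scaling lowers every log2 ratio by 0.51, more than the lowest value of Txn2, 0.35. It left Txn2 at 0.12 at the probe set used, within its error of 0.40, and Txnrd2 at -1.21.

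Among superoxide dismutases, which turn superoxide into hydrogen peroxide, only the extracellular form was at least 2-fold apart at the probe set used. Sod3, which binds to heparan sulfate at the vessel wall, had signals of 3.53 in MS-1, below background, and 127 in SVEC4-10. It was at least 7.80-fold higher in SVEC4-10, and its second probe set, with signals of 3.14 and 67.2, gave at least 4.13-fold. The cytosolic Sod1 had signals of 1226 and 1077, a log2 ratio of -0.19 that was within its error of 0.40. Its 4 measured probe sets ranged from -0.46 to 1.14, where the highest came from a dim probe set with signals of 53.4 and 118. The mitochondrial Sod2 had signals of 863 and 748, with log2 ratios of -0.40 to 0.15 over 4 probe sets. Cat, which breaks down hydrogen peroxide in peroxisomes, had signals of 443 and 451, with log2 ratios of 0.028 and -0.16.

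**Figure D3:**
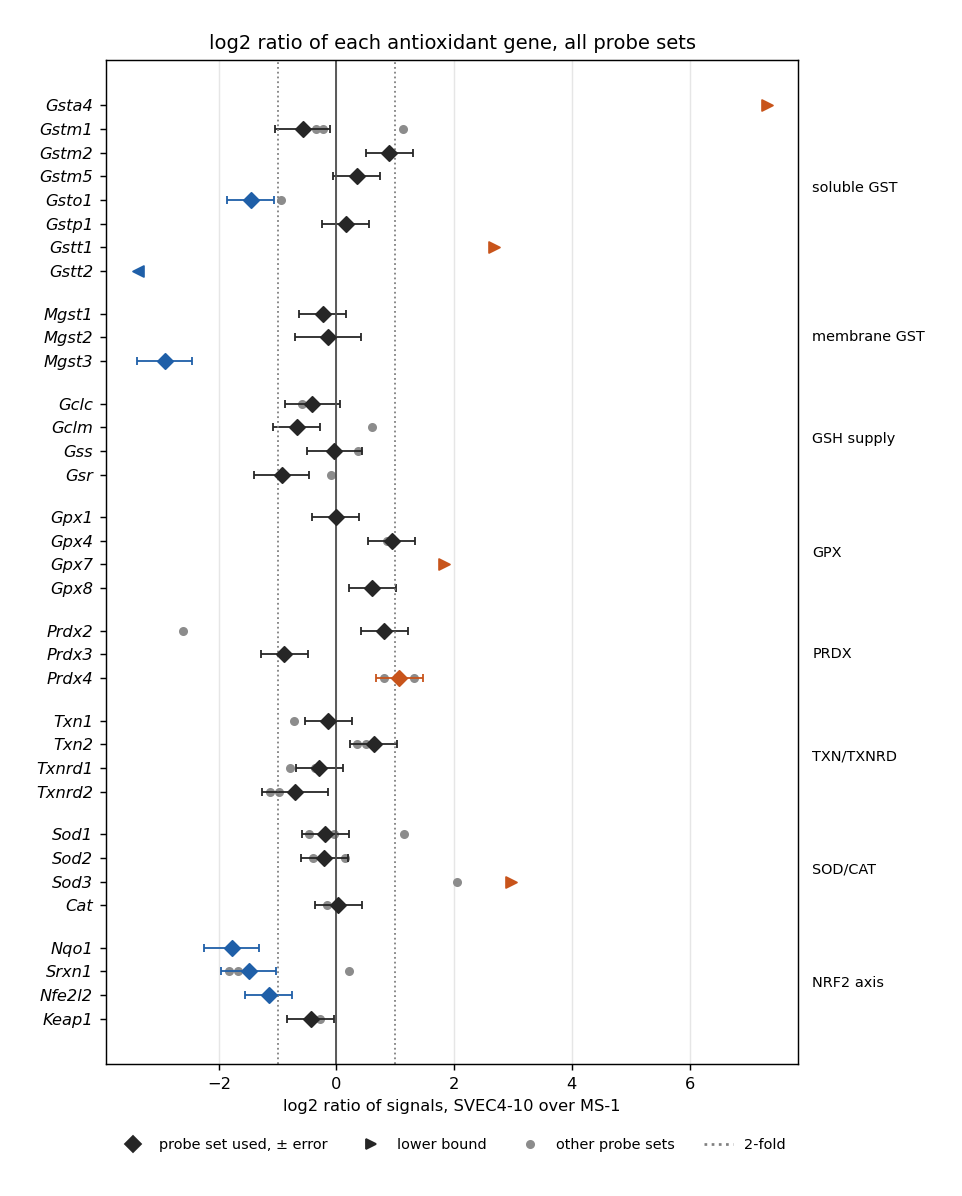
The log2 ratio of signals, SVEC4-10 over MS-1, is shown for the probe set used (diamond, with the standard deviation between probe sets of a gene as error bar), as a lower bound where 1 array was below background (triangle, no bar) and for the other measured probe sets (grey dots). Dotted lines mark 2-fold. All 4 genes of the NRF2 group lie left of 0 at the probe set used, and for 8 genes (Gstm1, Gclm, Gss, Prdx2, Sod1, Sod2, Cat and Srxn1) at least 1 grey dot lies on the other side of 0 from the diamond.

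NRF2, its inhibitor and the 2 targets grouped with them all had log2 ratios below 0 by the probe set used, 3 of 4 past 2-fold. Of all measured genes, 12.1% were at least 2-fold higher in MS-1, or 25.5% with the poly-A scaling, and 6194 of 12583 lay below 0. Values from so few genes, chosen with earlier results known, are given as a description only. Nfe2l2, which encodes NRF2, had signals of 1937 in MS-1 and 872 in SVEC4-10, a log2 ratio of -1.15 (error 0.40), and its second probe set was below background on both arrays. Nqo1, a quinone reductase, had signals of 282 and 82.0, 3.44-fold higher in MS-1, a log2 ratio of -1.78 (error 0.47). Srxn1, sulfiredoxin, which repairs over-oxidised peroxiredoxins, had signals of 360.2 and 128, a log2 ratio of -1.49 (error 0.47). Of its other probe sets, 2 gave -1.67 and -1.82, and a dim one with signals of 29.1 and 33.9 gave 0.22. Keap1 had signals of 393 and 290.1, a log2 ratio of -0.44 (error 0.40), and -0.28 at its second probe set.

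The start regions of the antioxidant genes were searched for the core of the antioxidant response element, TGACNNNGC, on both strands, from 250 bases before to 50 bases after each annotated start. The sequences are from RefSeq, build GRCm38.p6, and a window was found for 33 of the 39 genes. At least 1 match was present in 8 of the 33 genes (24.2%). Among those that were measured it was present in 7 of 29, against 16.7% of all measured genes with a window. Counted by window, since a gene can have several, 8 of 40 windows (20.0%) held a match, against 12.4% of all 32851 windows. They are shown because this element is the one through which NRF2 acts, and each is written on the strand of its gene with the match in capitals.
Gstm5: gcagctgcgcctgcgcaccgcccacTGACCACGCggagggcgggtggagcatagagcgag
Mgst1: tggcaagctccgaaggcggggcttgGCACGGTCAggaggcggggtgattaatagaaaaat
Gclm: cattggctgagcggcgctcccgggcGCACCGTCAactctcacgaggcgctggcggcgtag
Prdx1: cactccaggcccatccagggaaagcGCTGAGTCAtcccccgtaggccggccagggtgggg
Txnrd1: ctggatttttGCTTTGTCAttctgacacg
Sod1: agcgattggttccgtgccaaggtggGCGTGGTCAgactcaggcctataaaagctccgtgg
Srxn1: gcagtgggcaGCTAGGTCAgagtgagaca
Nfe2l2: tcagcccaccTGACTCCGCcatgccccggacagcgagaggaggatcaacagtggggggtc

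The windows shown lie at chr3:107895787-107895846 for Gstm5, chr6:138140446-138140505 for Mgst1, chr3:122245398-122245457 for Gclm and chr4:116685441-116685500 for Prdx1. Those of Txnrd1, Sod1 and Srxn1 lie at chr10:82859104-82859132, chr16:90220681-90220740 and chr2:152105542-152105570, all on the plus strand like the first 4, and that of Nfe2l2 lies at chr2:75704854-75704913 on the minus strand. Counted from the annotated start, the match began 240 bases upstream in Nfe2l2, 134 in Gclm, 133 in Prdx1, 92 in Txnrd1, 56 in both Mgst1 and Sod1 and 42 in Gstm5, and in Srxn1 it began at base 29 after the start. In Gstm5 and Nfe2l2 the match is on the strand of the gene, and in the other 6 it is on the opposite strand. Read on that strand, the match of Prdx1 is TGACTCAGC and that of Sod1 is TGACCACGC, the same 9 letters as in Gstm5. The Txnrd1 match lies before a start that is inside the annotated span of the gene.

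Of the 7 measured genes with a match, 2 (Srxn1 and Nfe2l2) were at least 2-fold higher in MS-1 and 0 in SVEC4-10, and 6 had a log2 ratio below 0. Over all measured genes the shares were 12.1% and 15.1%, and 6194 of 12583 genes lay below 0. Of the 6, Mgst1, Txnrd1 and Sod1 were within their error, and Gclm, Sod1 and Srxn1 each had a probe set above 0. Gsta4, Gstt2 and Sod3, all at least 2-fold apart, had no window. Of the 22 measured genes with a window and no match, 12 had a log2 ratio below 0. The median log2 ratio was -0.29 with a match and -0.024 without. Nqo1, with the lowest log2 ratio of the NRF2 group, had no match in its window, which says only that these letters are not there. A match is a description of the sequence and does not show binding.

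Of 5 enzymes of the endoplasmic reticulum or outside the cell, Prdx4 and Gpx8 were above background on both arrays, with log2 ratios of 1.07 and 0.61. Sod3 and Gpx7 were above background in SVEC4-10 only, so their log2 ratios could only lie above 0, and Gpx3 was below background on both arrays. Of all measured genes, 50.8% had a log2 ratio above 0 and 15.1% were at least 2-fold higher in SVEC4-10, so values from so few enzymes are given as a description only. Of 5 mitochondrial enzymes, 4 were measured (Prdx3, Txnrd2, Sod2 and Txn2), 0 were at least 2-fold apart, and the log2 ratios ran from -0.88 to 0.64. Scaled to the poly-A controls, Prdx4 was no longer 2-fold apart, and Gpx8 was at 0.095, within its error of 0.40. With that scaling 2 of the mitochondrial enzymes, Prdx3 and Txnrd2, were at least 2-fold higher in MS-1. Summed mesenchymal marker signal, 131 in MS-1 and 34363 in SVEC4-10, moved in the same direction as Sod3, Gpx7, Prdx4 and Gpx8 without that scaling. So did the mesothelial sum, 194 and 13073, while the endothelial sum, 24409 and 101, moved in the other. The part of any of these in the 4 enzymes was not tested.

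Further genes of the same pathways, from lists drawn up by function, differed in both directions, with median log2 ratios of the 7 lists from -0.60 to 0.33. Their counts stand beside 15.1% of all measured genes at least 2-fold higher in SVEC4-10 and 12.1% in MS-1, or 8.60% and 25.5% with the poly-A scaling. Of 17 other glutathione S-transferases and peroxidases 8 were measured, with 2 at least 2-fold higher on each array, or 0 in SVEC4-10 and 2 in MS-1 with the poly-A scaling. Gsto2, the omega-class relative of Gsto1, had signals of 304 and 87.0 in MS-1 and SVEC4-10, 3.50-fold higher in MS-1 as Gsto1 was higher there. Gstcd was 2.53-fold higher and Gsta3 at least 2.20-fold higher in SVEC4-10, both under 2-fold apart with the poly-A scaling.

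Of 19 genes of glutathione turnover and precursor supply 15 were measured, with 2 at least 2-fold higher in SVEC4-10 and 4 in MS-1, or 1 and 5 with the poly-A scaling. Cth, which makes cysteine from cystathionine, had signals of 45.4 in MS-1 and 209 in SVEC4-10, 4.61-fold higher in SVEC4-10. Slc7a11, the transporter that imports cystine for glutathione synthesis, had signals of 59.1 and 20.7, a log2 ratio of -1.51, with -0.52 at its second probe set. Chac1, which breaks glutathione down, had signals of 1369.5 and 454, 3.02-fold higher in MS-1, and Slc1a5, a neutral amino acid transporter, was 2.96-fold higher there. The gene for cystine import and that for making cysteine within the cell thus lay in opposite directions at the probe sets used. The Slc7a11 signal in SVEC4-10 was near the background of 17.6, and its second probe set was within its error of 0.56. Cth was read by 1 probe set.

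Of 22 glutaredoxins and other thiol oxidoreductases, all were measured, 5 were at least 2-fold higher in SVEC4-10 and 2 in MS-1, or 3 and 4 with the poly-A scaling. Sesn1, a p53-responsive sestrin, had signals of 37.9 and 342, 9.03-fold higher in SVEC4-10. Among the enzymes that repair oxidised methionine, Msrb3, which has a form in the endoplasmic reticulum, had signals of 108 and 887, 8.24-fold higher in SVEC4-10, while the mitochondrial Msrb2 had signals of 65.1 and 9.14 and was at least 3.69-fold higher in MS-1. Txndc5, a thioredoxin-domain protein of the endoplasmic reticulum, was 3.43-fold higher in SVEC4-10, with signals of 471 and 1616.

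Of 12 genes of NADPH supply, the reductant for both thiol systems, 11 were measured. G6pdx, named for this alone, had no probe set under that symbol. Of the 11, 1 was at least 2-fold higher on each array. With the poly-A scaling 0 were so in SVEC4-10 and 4 in MS-1, and Idh1 was under 2-fold apart. Idh1, the cytosolic isocitrate dehydrogenase, had signals of 438 and 1219, 2.78-fold higher in SVEC4-10. Taldo1, transaldolase of the pentose phosphate pathway, had signals of 3423 and 1339, 2.56-fold higher in MS-1. Its partner Tkt, transketolase, had a log2 ratio of -0.92.

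Other NRF2 targets and regulators lay on both sides of 0. Of 26 measured, 7 were at least 2-fold higher in SVEC4-10 and 5 in MS-1, and the median log2 ratio was -0.25. With the poly-A scaling the counts were 5 and 9 and the median was -0.76. Cbr1, a carbonyl reductase, had signals of 21.6 and 316, 14.7-fold higher in SVEC4-10, and its relative Cbr3 was at least 10.9-fold higher there, with signals of 7.35 and 178. Ptgr1, a prostaglandin reductase, was 12.0-fold higher in SVEC4-10, with signals of 68.2 and 820.3, and Cyp2s1, a cytochrome P450, at least 8.05-fold. Hmox1, haem oxygenase and a textbook NRF2 target, named after its values were seen, had signals of 2062 and 625.5, 3.30-fold higher in MS-1.

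NADPH oxidase subunits and xanthine oxidoreductase produce superoxide, the substrate of the dismutases. Of 11 measured genes of superoxide sources and copper supply, 2 were at least 2-fold higher in SVEC4-10 and 3 in MS-1, or 2 and 6 with the poly-A scaling. Cyba, the membrane subunit of NADPH oxidases, had signals of 1821 and 162, 11.2-fold higher in MS-1. Phagocytes also express it. The summed signals of the leukocyte markers and of the endothelial markers (24409 in MS-1 and 101 in SVEC4-10) both moved in the same direction. The leukocyte sum, 3741 in MS-1, came mostly from Cd68 with 3645, while Ptprc and Itgam were below background on both arrays. Any part of either cell type in the Cyba signal was not tested. Nox4, the oxidase that pairs with Cyba and is known from endothelium, had signals of 324 and 34.5, 9.39-fold higher in MS-1. Its probe sets gave log2 ratios of -3.23 and -3.59. Xdh, xanthine oxidoreductase, had signals of 33.5 and 459, 13.7-fold higher in SVEC4-10, and Slc31a1, a copper importer, was 3.28-fold higher there, with 0.29 as the log2 ratio of its second probe set. Of 7 genes of selenoprotein synthesis, which the selenoenzymes Gpx1, Gpx4, Txnrd1 and Txnrd2 need, 0 were at least 2-fold apart, with log2 ratios from -0.73 to 0.36, and with the poly-A scaling 1 was at least 2-fold higher in MS-1.

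**Figure D4:**
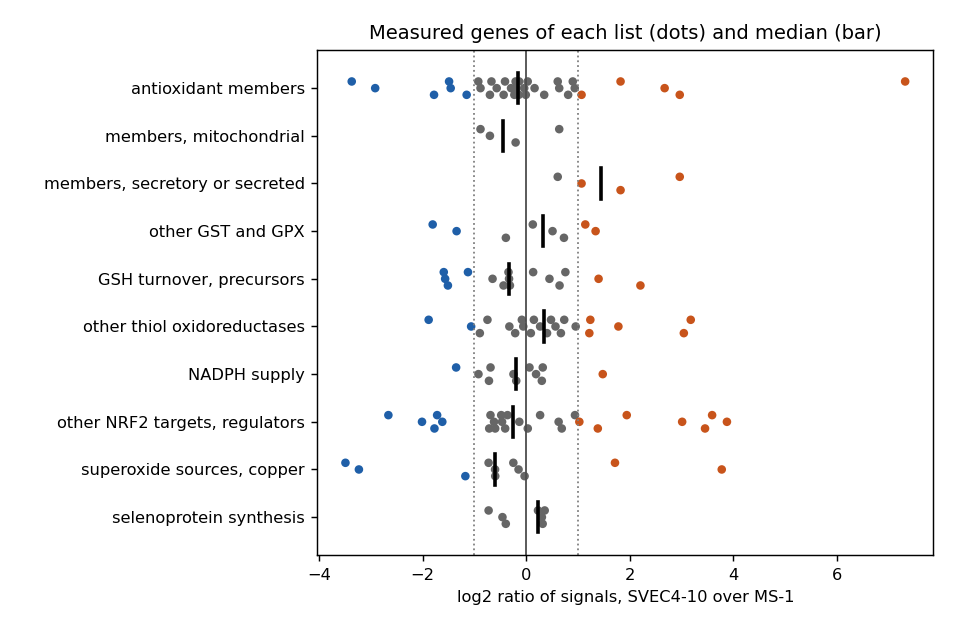
Dots are measured genes of each list by their log2 ratio of signals, SVEC4-10 over MS-1, orange or blue past 2-fold (dotted lines), and bars are medians. The secretory or secreted members include Sod3 and Gpx7, whose ratios are lower bounds, and the other NRF2 targets and regulators spread from -2.66 to 3.87.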

How the data were processed

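RNA of 1 culture per line was isolated with Trizol, and 6 µg gave the biotin-labelled cRNA for the Affymetrix arrays, per the labels' protocols. The authors deposited a linear intensity for every probe set and array, by a summary method that is not given in the sources used here. On each array the 2%-trimmed mean was 150.001, so the arrays had been brought to a common total, which assumes equal total signal, and no further scaling was applied.

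Of 45101 probe sets, 34945 had 1 gene in the platform annotation (34741 matched by gene identifier to RefSeq, GRCm38.p6, for names), 932 had several and were left out, 9160 were unnamed and 64 were controls. Background came from 129 probe sets. A gene was represented by the measured probe set of highest mean log2 signal, avoiding probe sets marked _x_at and _s_at where another existed. The error is the standard deviation of the difference between the 2 brightest probe sets of a gene, both above background on both arrays (4813 genes), divided by the square root of 2. With 1 array per group there was no test, so genes were counted by a 2-fold threshold. The number of arrays limits the precision. All 39 genes were named, and of each further list up to 4 genes of largest log2 ratio. The genes and lists were chosen with earlier results of these data known. Python 3.11.15, numpy 2.4.6 and pandas 2.3.3 were used, and the steps were tested on simulated data. The alternatives covered scaling, background, probe set choice and threshold.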

Additional observations from a re-analysis of the deposited data

How the results depend on the processing

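The counts of antioxidant genes at least 2-fold higher on the SVEC4-10 and MS-1 arrays (5 and 6) stayed within 1.5 times under quantile normalization, centring on the median, a background set at percentile 40 of all probe sets, no floor, doubled background, the mean over probe sets, unmarked probe sets only (28 genes measured), use of the probe set of smallest ratio, and avoiding only the _x_at class, the last chosen after seeing the data. The shares of all measured genes moved more over these settings, from 11.1% to 18.1% in SVEC4-10 and from 8.59% to 16.5% in MS-1. They were lowest with the probe set of smallest ratio and highest with no floor. Scaled to the poly-A controls, 11 genes were higher in MS-1, against 25.5% of all measured genes. The median log2 ratio of the antioxidant genes was then -0.68, since that scaling lowers every ratio by the same amount. At a threshold of 4-fold, 3 genes were higher in SVEC4-10 and 2 in MS-1, against 5.71% and 4.24% of all measured genes. With the probe set of smallest ratio, Srxn1 turned to 0.22, Gclm to 0.60 and Sod2 to 0.15. The 2-fold counts were then 4 and 4, against 11.1% and 8.59% of all measured genes. With the mean over probe sets, Prdx2 turned to -0.90, Gss to 0.16, Sod1 to 0.11 and Cat to -0.064, and with unmarked probe sets only Cat turned to -0.16. Of the log2 ratios of single genes, 12 values changed sign under an alternative, in 10 genes, which include Gstm5, Gstp1 and Cat (poly-A scaling) and Gpx1 (quantile normalization), and only Srxn1 among them had been at least 2-fold apart. The lower bounds depend on background: without a floor, the log2 ratios of Gsta4, Gstt1, Gstt2, Gpx7 and Sod3 were 10.25, 5.56, -4.36, 4.43 and 5.17. No paired analysis was possible because each line has 1 array.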
